A study of Nilaparvata lugens with 9 samples.

Results

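The miR-2, miR-13 and miR-71 families of the brown planthopper (*Nilaparvata lugens*) were taken from the small RNA table of short-winged (SW) female adults. A member was any entry whose number after "miR-" was exactly 2, 13 or 71, with both arms and every isoform kept and each distinct sequence counted once. This gave 8 sequences (13 entries) of 759 distinct sequences (905 entries) in the table. The miR-2 family held 5 of them, the miR-13 family 1 and the miR-71 family 2.

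The study followed miRNAs through the reproductive development of *N. lugens*, a sap-sucking pest that lives on rice. The 3 groups were untreated whole bodies of the short-wing morph at 1, 3 and 5 days after emergence (1 d, 3 d and 5 d), with 3 libraries each. The insects came from 1 field population kept on rice seedlings, and a sample held 30 insects. Nothing in the sources says that the 3 libraries of a phase came from separate groups of insects, so the spread between them may be technical.

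miR-2 and miR-13 are paralogs that begin with the same bases, among them the seed that pairs with target mRNAs. In *Drosophila* their seed matches a 3′ UTR element called the K box and they restrain the pro-apoptotic genes *reaper*, *grim* and *sickle*, and in the cockroach *Blattella germanica* miR-2 family miRNAs remove *Krüppel homolog 1* mRNA at metamorphosis. miR-71 has another seed, lies beside miR-2 family hairpins in many invertebrates, is missing from *Drosophila*, and lengthens life in *Caenorhabditis elegans*. A miRNA hairpin yields a 5p and a 3p strand, of which one usually prevails.

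The members are printed first to show which of them share a seed. Each is written 5′ to 3′ with T for U, the letters as deposited, and bases 2 to 8 (the seed) in capitals. A prefix such as aga or tca names the species of the closest known miRNA, and the ending (R+1, L-2, ss) gives the difference from it.
miR-2c-3p (aga-miR-2c-3p_2ss12TC21GA): tATCACAGccactttgatgaac
miR-2-3p (tca-miR-2-3p_R+1): tATCACAGccagctttgatgagcg
tur-miR-2-3p (tur-miR-2-3p_R+1_1ss22TG): tATCACAGccagctttgatgagtt
miR-13b-3p (ame-miR-13b-3p_R-2_1ss21AT): tATCACAGccatttttgacgt
shifted miR-2-3p (tca-miR-2-3p_L-2R+1): tCACAGCCagctttgatgagca
miR-2b-2-5p (pte-miR-2b-2-5p_3ss13GT17G-18TC): cTCACAAAgtggttgtcatatg
miR-71-5p (pca-miR-71-5p_R-1): tGAAAGACatgggtagtgagat
miR-71-3p (pca-miR-71-3p): tCTCACTAccttgtctttcatg

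The seed ATCACAG was common to 4 members, miR-2c-3p, miR-2-3p, tur-miR-2-3p and miR-13b-3p, and these 4 shared their first 11 bases. miR-2-3p and tur-miR-2-3p shared 22 bases. The shifted form began 2 bases into miR-2-3p, which gave it the seed CACAGCC, and over the 22 bases they could be compared it differed from miR-2-3p only as G24A (base of miR-2-3p, position counted from 1 at its 5′ end, base of the shifted form). Only 1 member, miR-71-3p, was listed with exactly the sequence in miRBase. The name of miR-2c-3p was not settled by its matches: of the 13 miRBase precursors listed for it, 11 are named mir-13 and 2 mir-2.

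The genome positions placed the miR-2 hairpins, and a hairpin that holds the bases of miR-13b-3p, in 1 cluster. They lay on the plus strand of scaffold NW_019106111.1, as 5 hairpins between 232158 and 240744, positions as deposited. The sources used here do not give the genome build or whether positions count from 0 or 1, and no gene annotation of that build was used. The hairpins began at 0, 2405, 6444, 6598 and 8501 bases from the start of the first (for the second hairpin, 2 starts 6 bases apart were listed). The deposited predicted folding energies of the hairpins were between -43.6 and -33.2 kcal/mol.

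The first hairpin held the shifted miR-2-3p exactly. It also held the first 23 bases of miR-2-3p, but not its last base. The second hairpin held miR-2c-3p, at 234618 to 234639. The third hairpin had only predicted candidates (PC in the table) listed on it, although the 21 bases of miR-13b-3p matched it exactly, at 238654 to 238674.

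The fourth hairpin held miR-2b-2-5p on its 5p side and miR-2-3p on its 3p side, at 238803 to 238826. The table also listed the shifted form there, where it departs by 1 base, G22A (hairpin base, position in the sequence, sequence base). The fifth hairpin, the only place where miR-2-3p was listed, held the same 24 bases at 240706 to 240729, so reads of miR-2-3p cannot be assigned to one of the 2 hairpins. No genome position was listed for miR-71, miR-13b-3p or tur-miR-2-3p. Matches to hairpins were looked for on this scaffold only. The place of miR-71 relative to the cluster is therefore not given here.

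**Figure D1:**
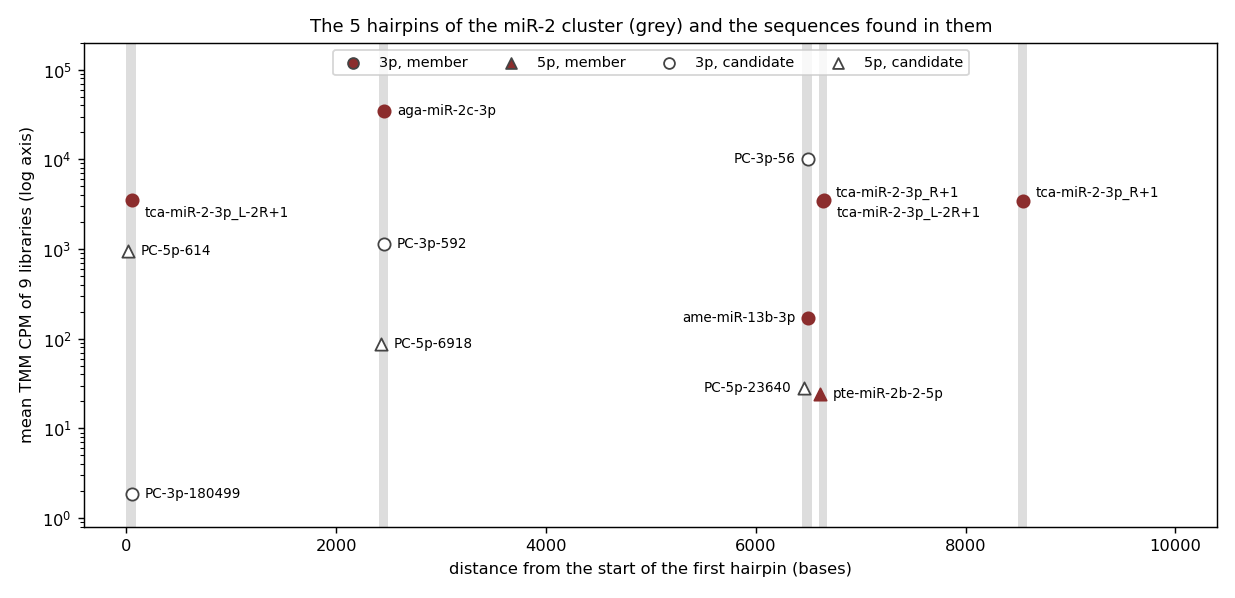
Map of the miR-2 cluster: distance in bases from the start of the first hairpin (x) against the mean level over 9 libraries in TMM CPM on a log axis (y), with hairpins in grey, 3p sequences as circles, 5p sequences as triangles, members filled and predicted candidates open. miR-2c-3p, 2460 bases along, stands highest at 34208 TMM CPM, and miR-2-3p and its shifted form are each drawn at 2 hairpins.

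Other sequences of the cluster, and any other sequence with a member's seed, were read beside the members because 3 of them are longer forms of members. In all, 12 sequences of the table carried a seed found among the members: the 8 members and 4 candidates. A further 3 candidates were 5p strands within the cluster. None of the entries analysed here was named miR-6, miR-11, miR-308, miR-2944 or miR-2779, the other names on the list drawn up for the miR-2 seed. The 4 abundant candidates are shown to compare them with the members.
PC-3p-56 (PC-3p-56_129622), the third hairpin: tATCACAGccatttttgacgtacc
PC-3p-592 (PC-3p-592_10301), the second hairpin: tATCACAGccactttgatgaaca
PC-5p-614 (PC-5p-614_9915), the first hairpin: tCATCAAAgccggattgtcata
PC-3p-162 (PC-3p-162_42907), another scaffold: cATCACAGtttcagccccgaga

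PC-3p-56 is miR-13b-3p with 3 more bases at its 3′ end, at 238654 to 238677. PC-3p-592 is miR-2c-3p with 1 more base, which departs from the hairpin as T23A. PC-3p-162 shares the seed of miR-2 but little else.

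The members took a small part of the sequenced miRNAs. They made up 3.57 to 5.51% of the reads of a library, with a median of 4.71%, and with the cluster's candidates 4.29 to 6.34%. The libraries held 972506 to 3184052 reads over all distinct sequences, the lowest in 1 d replicate 2. Levels are given as TMM CPM, which is reads per 1000000 after edgeR's trimmed-mean scaling. The muscle miRNAs miR-1 and miR-133 and the nervous system miRNA miR-124, read as a check of whole bodies, were found at 42419 to 61845, 1993 to 4083 and 401 to 1721 TMM CPM. In whole bodies, fewer cells of a type and less of an RNA per cell cannot be told apart.

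Levels between members carry 1 further limit. Of the 8 members, 6 had values with a fraction of 0.5, as did 138 of 146 sequences with 2 entries and 86 of 613 with 1 entry. Among candidates with such values, 88 of 144 had fewer reads than the last number of their name, against 2 of 418 with whole values. The quotient of reads and that number had a median of 0.818 and 1.00 in the 2 sets and a lowest value of 0.5 in both, and the sources do not say what the number counts. Whether such entries hold only 0.5 of the reads of their sequence is thus not settled, and it would touch all members except miR-2c-3p and miR-2b-2-5p. Comparisons of 1 sequence between phases do not depend on it if the part held is the same in every library, which was not tested. Shares and ratios between members do depend on it.

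The most abundant member was miR-2c-3p, the seventh of all 759 sequences. Its TMM CPM was 39634, 31503 and 35290 in the 1 d libraries, 34937, 32177 and 33005 at 3 d, and 30067, 36105 and 35157 at 5 d. The 3 phases overlapped, and their means ± SD (n = 3) were 35476 ± 4068, 33373 ± 1416 and 33777 ± 3247. The log2 fold change was -0.09 (SE 0.16) in 3 d vs. 1 d and -0.07 (SE 0.16, 95% interval -0.44 to 0.30) in 5 d vs. 1 d, with an adjusted p of 0.930 in the latter by edgeR's quasi-likelihood test. Its level was among the least variable in the data: the coefficient of variation over the 9 libraries was 8.38%, the third lowest of 341 sequences that passed the filter on low counts, whose median was 51.8%. Among the 50 most abundant sequences, with a median of 27.6%, it was the second lowest.

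miR-2c-3p made up 66.1 to 76.9% of the member reads, and the lowest share was in 5 d replicate 1 (95% Wilson interval 65.8 to 66.4%, which covers counting error only). With values of this kind doubled, a choice made after seeing the data, its median share fell from 74.2 to 59.0%, and it was still the largest of the members. Its 5p partner in the same hairpin, PC-5p-6918, took 0.140 to 0.575% of the reads of that hairpin's strands. The 23-nt form PC-3p-592 took 2.32 to 4.41% of the reads of both forms.

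miR-2-3p and the shifted form stood next to each other at much lower levels. miR-2-3p had 3777, 3033 and 3302 TMM CPM at 1 d, 3786, 3151 and 3024 at 3 d, and 4890, 2618 and 3191 at 5 d. The shifted form had 3841, 3223 and 3096 at 1 d, 3914, 3062 and 2943 at 3 d, and 5475, 2855 and 2908 at 5 d. Both were highest in 5 d replicate 1, the library where miR-2c-3p was lowest, and all phases overlapped.
In 5 d vs. 1 d the log2 fold change was 0.08 (SE 0.26, 95% interval -0.51 to 0.68) for miR-2-3p and 0.15 (SE 0.29, -0.51 to 0.80) for the shifted form, with adjusted p-values of 0.972 and 0.914 by edgeR. Without 5 d replicate 1 these became -0.29 and -0.30. The 2 forms kept an even balance: the shifted form, with the other seed, took 47.7 to 52.8% of their reads, 50.1 ± 1.59% at 1 d, 49.8 ± 0.879% at 3 d and 50.9 ± 2.80% at 5 d (SD, n = 3).

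The levels of both forms followed each other over the 9 libraries (Pearson r of log2(TMM CPM + 1) 0.95, Spearman rho 0.83). Without the 2 libraries farthest from the median of the shifted form, r was 0.81. PC-3p-162, from another scaffold, followed them as well, with r of 0.94 to the shifted form and 0.91 to miR-2-3p, and 0.71 and 0.83 without the 2 farthest libraries. Its 6352 TMM CPM in 5 d replicate 1 were the highest of its 9 values, as in both miR-2-3p forms. These points share their libraries and depth, and the forms share most of their bases, so the correlations only describe them.

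tur-miR-2-3p, the form with another 3′ end, was close to the limit of detection. It had reads in 6 of 9 libraries and never more than 9.5 in one, did not pass the filter on low counts and was not tested. It was listed at 0 in 1 d replicates 2 and 3 and in 3 d replicate 1, where a count of 0 allows up to 3 reads.

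miR-2b-2-5p was the only 5p strand named for miR-2. It was rare, with 20.3, 14.7 and 24.9 TMM CPM at 1 d, 16.9, 29.4 and 40.8 at 3 d, and 23.7, 18.8 and 30.9 at 5 d, from 12 to 136 reads a library. The phases overlapped. Its log2 fold change was 0.53 (SE 0.47) in 3 d vs. 1 d and 0.28 (SE 0.47) in 5 d vs. 1 d, with edgeR adjusted p-values of 0.922 and 0.886. Of the reads of miR-2b-2-5p and miR-2-3p, the 3p member that matches its hairpin exactly, 0.444 to 1.33% were 5p, or 0.222 to 0.669% with miR-2-3p doubled. miR-2-3p also matches the fifth hairpin, whose reads cannot be separated.

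Among the hairpins with a 5p strand listed, the first had the highest 5p share as computed here. Its 5p strand, the candidate PC-5p-614, had 584 to 1431 TMM CPM and made up 12.4 to 33.4% of the reads of PC-5p-614 and the shifted miR-2-3p together, the lowest share in 5 d replicate 1. With the shifted form doubled as before, the range was 6.59 to 20.0%. At the second hairpin and at the third the 5p share stayed below 1% in every library, and at the fourth it was above 1% in 3 d replicate 3 only, as listed. These shares compare hairpins within these libraries and were not tested between phases. Their 3p strands are unlike: the shifted form is also listed at the fourth hairpin, and miR-2-3p also matches the fifth. The first hairpin also holds the first 23 bases of miR-2-3p, which were not counted for it. No 5p strand was listed for the fifth.

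**Figure D2:**
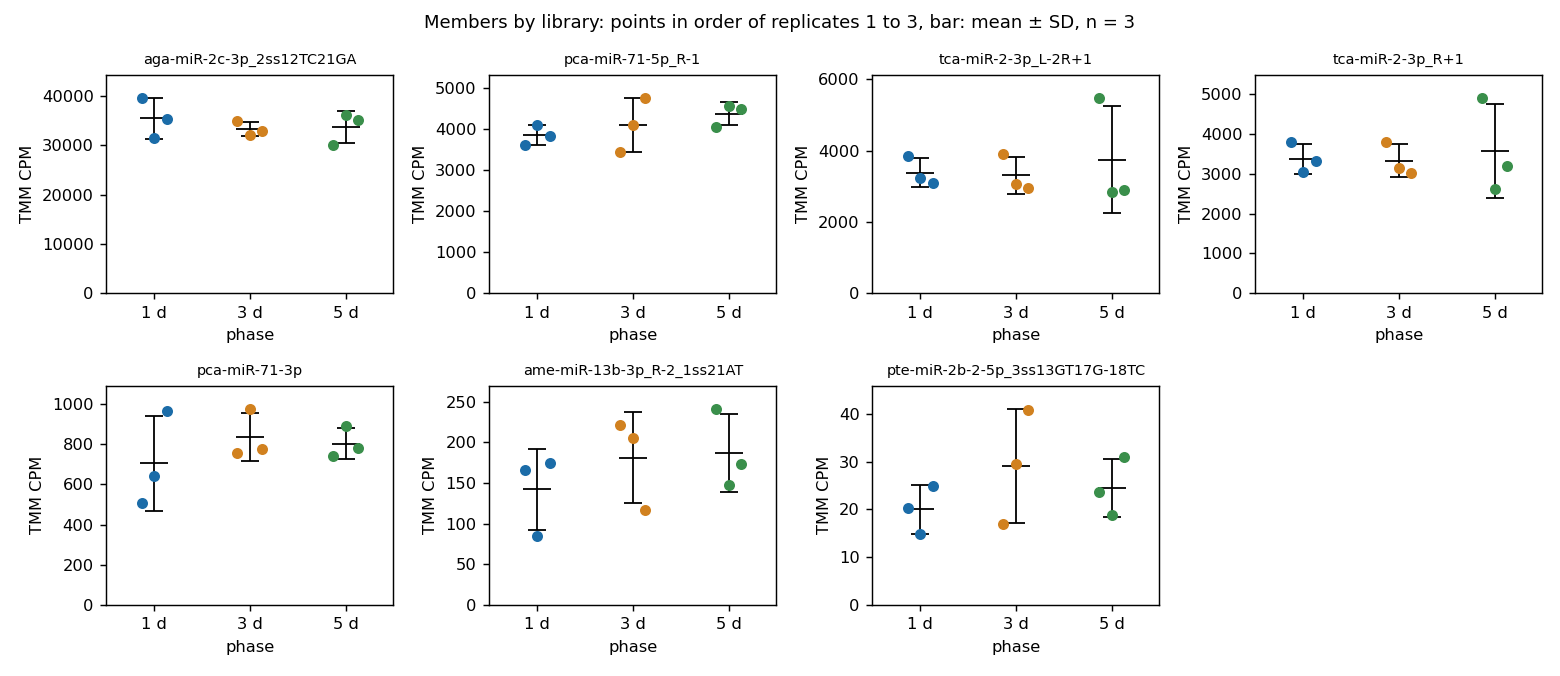
Level in TMM CPM (y, from 0, a separate scale for each panel) of the 7 members that passed the filter, by phase (x), with each library as a point in the order of replicates 1 to 3 and the mean ± SD (n = 3) as a bar. The 3 phases overlap in every panel, and 5 d replicate 1 is highest for both miR-2-3p forms (5475 and 4890) and lowest for miR-2c-3p (30067).

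miR-13b-3p was the least abundant of the tested 3p members. Its TMM CPM was 166, 85.3 and 175 at 1 d, 221, 205 and 117 at 3 d, and 241, 147 and 173 at 5 d. The lowest value was in 1 d replicate 2, and the phases overlapped. The log2 fold change was 0.34 (SE 0.40) in 3 d vs. 1 d and 0.39 (SE 0.40, 95% interval -0.51 to 1.29) in 5 d vs. 1 d, with edgeR adjusted p-values of 1.00 and 0.845.

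Most reads that begin with the bases of miR-13b-3p were listed under PC-3p-56. This 24-nt form had 12045, 6840 and 13734 TMM CPM at 1 d, 5233, 15479 and 10776 at 3 d, and 7226, 6260 and 12289 at 5 d, which made it the sixteenth most abundant sequence of the table. Of the reads of both forms, the 21-nt member took 1.08 to 4.05%, or 2.13 to 7.79% with its reads doubled as before. The member's name and the rule thus reached only a small part of the third hairpin's reads. The 5p strand of this hairpin, PC-5p-23640, took 0.177 to 0.397%.

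PC-3p-56 had a log2 fold change of -0.34 (SE 0.43, 95% interval -1.31 to 0.63) in 5 d vs. 1 d, with an edgeR adjusted p of 0.858. Its level split the libraries within each phase. This split was drawn from the values of PC-3p-56 itself, a choice made after seeing the data. The 4 lowest values were those of 1 d replicate 2, 3 d replicate 1 and 5 d replicates 1 and 2. In the same 4 libraries, sequences of 24 nt or longer outside the cluster took 0.882 to 1.07% of the reads, against 1.41 to 1.76% in the other 5. PC-5p-23640, the 22-nt 5p strand of the same hairpin, was also lowest in these 4 libraries, from 10 to 145 reads a library. It had 12.3 to 19.2 TMM CPM there and 23.3 to 45.9 in the other 5 (r 0.85 with PC-3p-56). The 24-nt miR-2-3p did not follow the split, with 2618 to 4890 against 3024 to 3777 (r -0.13). PC-3p-56 had r of 0.67 with the 22-nt miR-2b-2-5p and 0.60 with PC-3p-592. With the remaining tested members and candidates r ran from -0.36 to 0.46. Whether sequence length plays a part in the level of PC-3p-56 was not tested.

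**Figure D3:**
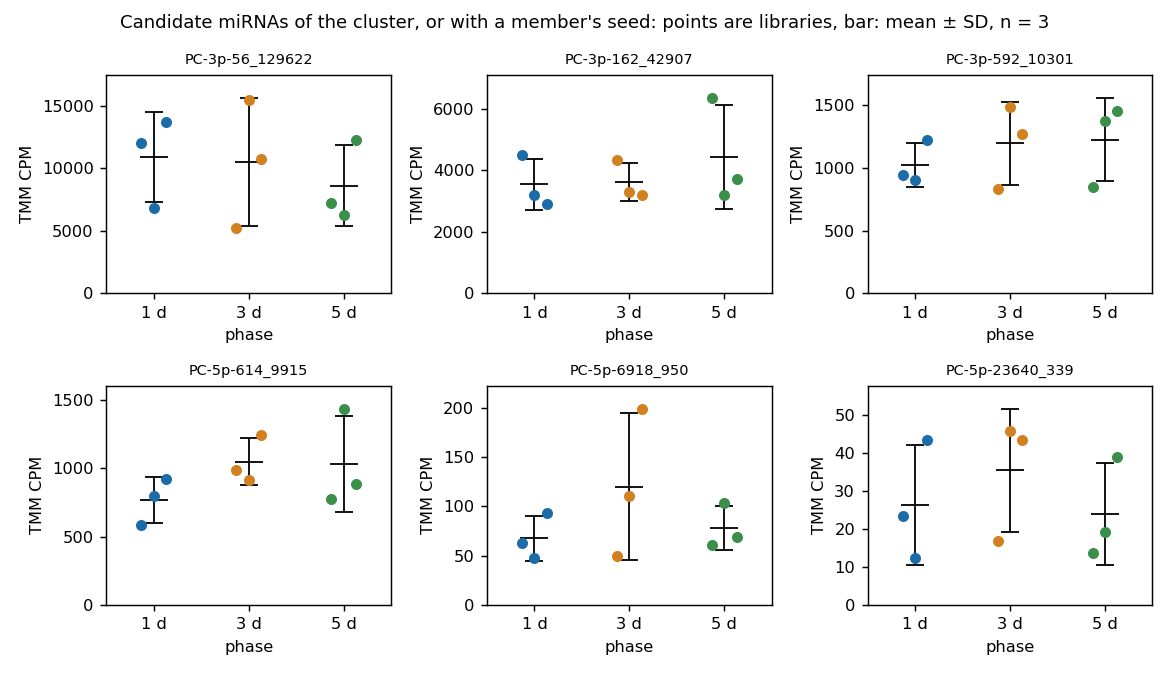
Level in TMM CPM (y, from 0, a separate scale for each panel) of the 6 tested candidates of the cluster or with a member's seed, by phase (x), with points for libraries and bars for mean ± SD (n = 3). PC-3p-56 spans 5233 to 15479 within 3 d alone, more than the distance between its phase means.

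miR-71 was read from both arms. miR-71-5p, the more abundant arm, had 3605, 4084 and 3831 TMM CPM at 1 d, 3430, 4095 and 4743 at 3 d, and 4042, 4562 and 4480 at 5 d. The lowest 5 d library lay below the highest 1 d library, so the phases overlapped. The log2 fold change was 0.09 (SE 0.20) in 3 d vs. 1 d and 0.18 (SE 0.20, 95% interval -0.27 to 0.63) in 5 d vs. 1 d, with edgeR adjusted p-values of 1.00 and 0.845. Its coefficient of variation, 10.7%, was the fifth lowest of the 341 tested sequences and the third lowest of the 50 most abundant.

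miR-71-3p had 505, 643 and 967 TMM CPM at 1 d, 756, 974 and 777 at 3 d, and 740, 891 and 781 at 5 d. The spread was widest at 1 d, where the lowest and the second highest value of all 9 stood. The log2 fold change was 0.25 (SE 0.29) in 3 d vs. 1 d and 0.19 (SE 0.29, 95% interval -0.46 to 0.84) in 5 d vs. 1 d, with edgeR adjusted p-values of 1.00 and 0.858. Of all miR-71 reads, the 3p arm took 15.3 ± 4.22% at 1 d, 17.1 ± 2.70% at 3 d and 15.6 ± 0.753% at 5 d (SD, n = 3). Both arms had 2 entries and values with a fraction of 0.5, so this share is not touched by that limit if both hold the same part of their reads.

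No member passed the test between phases. edgeR called 0 of 7 tested members in 3 d vs. 1 d, where 0% of all 341 tested sequences were called, and 0 of 7 in 5 d vs. 1 d, where 1.47% were called. It called 0 of 7 in 5 d vs. 3 d, against 0% of all, and 0 of 7 over all 3 phases, against 1.17%. At shares of this size, calls among 7 members would be rare in any case. At an unadjusted p below 0.05, edgeR gave 0 of 7 members in each of these 4 tests, taken in the order given, while 8.5, 11.4, 2.35 and 8.21% of all tested sequences passed. DESeq2 gave 0 of 7 at this level, beside 9.09, 12.6, 4.11 and 9.38% of all. limma (pseudocount 1) gave 0 of 7, beside 7.33, 10.3, 2.64 and 7.04%. After adjustment both called 0 of 7 members in each test, where DESeq2 called 1.76, 3.81, 0.587 and 3.52% of all tested sequences and limma 0, 1.47, 0 and 0.88%.

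The libraries of 2 phases did not separate for any tested member either. The count was 0 of 7 in each of the 3 comparisons, while among all tested sequences the phases did not overlap for 9.97% (3 d vs. 1 d), 18.2% (5 d vs. 1 d) and 5.87% (5 d vs. 3 d). The median log2 fold change of the 7 members was 0.09, 0.18 and 0.05 in the same order, beside 0.06, 0.05 and -0.04 over all tested sequences. In 5 d vs. 1 d, 6 of the 7 values were above 0, beside 184 of all 341 tested sequences, and no member passed the test. The 7 include 2 forms of miR-2-3p and 2 arms of miR-71, so they are not independent. The common biological coefficient of variation in the edgeR fit was 0.69, and the member intervals in 5 d vs. 1 d ran from -0.78 at the lowest to 1.35 at the highest bound, both for miR-2b-2-5p.

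**Figure D4:**
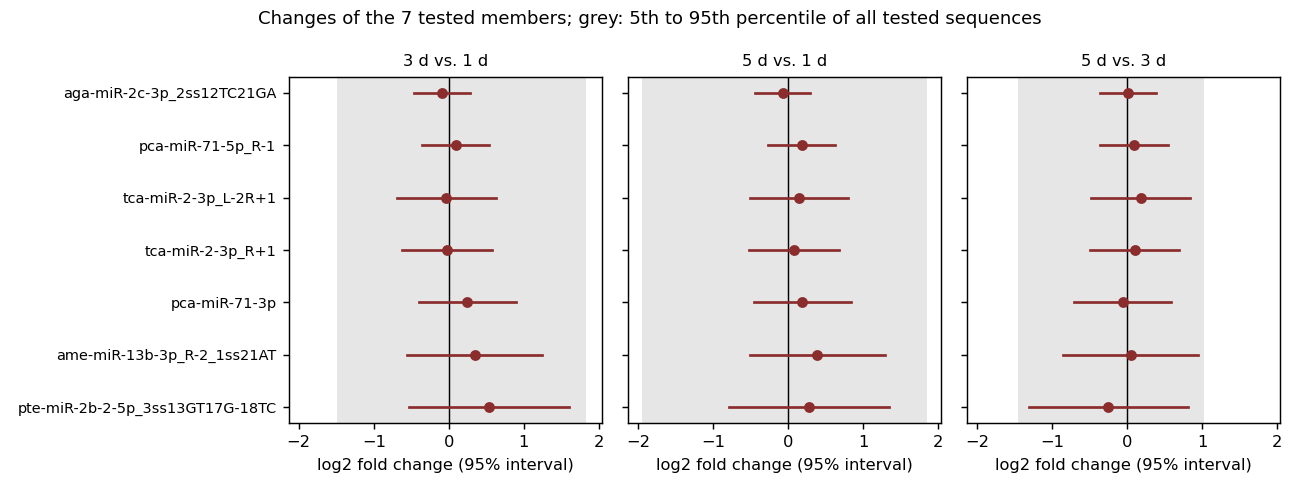
Log2 fold change (x) of the 7 tested members (y) in the 3 comparisons, with points for edgeR estimates, lines for 95% intervals and a grey band for the 5th to 95th percentile of all 341 tested sequences. Every interval crosses 0, and in 5 d vs. 1 d the estimates lie between -0.07 and 0.39 in a band of -1.94 to 1.85.

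Ratios within a library, which do not depend on scaling, compared paralogs and arms across phases. Of 3 ratios computed, the first set miR-71-5p against miR-71-3p, from 3.96 to 7.13 times. Its log2 mean ± SD (n = 3) was 2.50 ± 0.45 at 1 d, 2.29 ± 0.28 at 3 d and 2.44 ± 0.08 at 5 d. The exact permutation test over all 280 groupings of the 9 libraries gave p = 0.675.

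The ratio of miR-2c-3p to miR-13b-3p, paralogs with the same seed, was 125 to 367 times as listed, with log2 means of 8.02 ± 0.44, 7.58 ± 0.48 and 7.52 ± 0.50. The difference 5 d minus 1 d was -0.50, and the exact permutation p over the 3 phases was 0.45. When the candidate forms PC-3p-592 and PC-3p-56 were added to all 3p forms of each family, a choice made after seeing the data, the ratio was only 2.54 to 7.97 times. The difference then turned to 0.30, with an exact permutation p of 0.821.

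The ratio of miR-71-5p to miR-2c-3p was 0.0910 to 0.144, with log2 means of -3.20 ± 0.26, -3.04 ± 0.28 and -2.95 ± 0.05, and an exact permutation p of 0.486. Adjusted over the 3 ratios by the Benjamini-Hochberg method, each of these p-values was 0.675. The smallest p the 3-phase test can give is 0.00357, and that of 3 libraries against 3 is 0.1. The lowest pairwise p among the 3 ratios was 0.3, also by the exact permutation test.

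**Figure D5:**
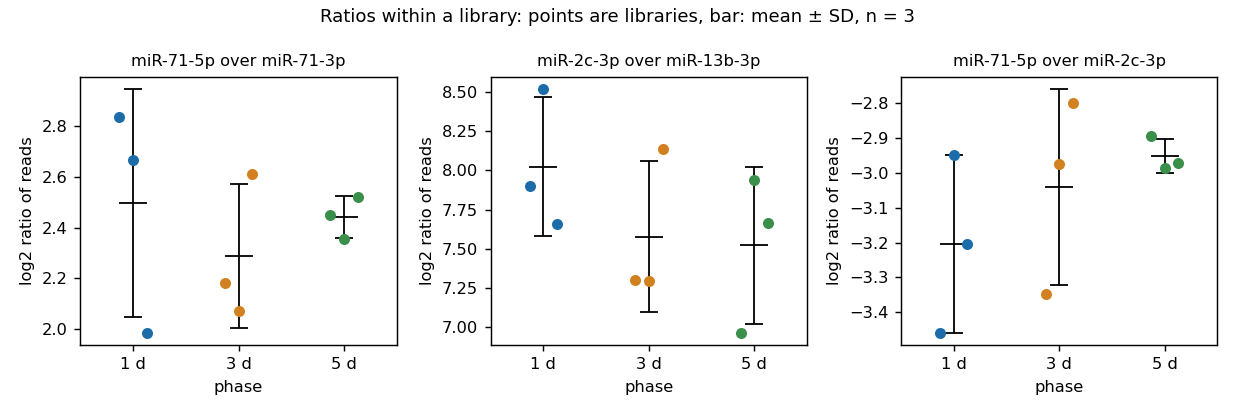
Log2 ratio of reads within a library (y) by phase (x) for miR-71-5p over miR-71-3p, miR-2c-3p over miR-13b-3p and miR-71-5p over miR-2c-3p, with points for libraries and bars for mean ± SD (n = 3). In each panel the phases overlap, and the 5 d libraries stand closest together in the last one (SD 0.05).

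Over the 9 libraries, the tested sequence most like miR-2c-3p was the rare candidate PC-3p-135039, at a mean of 4.93 TMM CPM (Pearson r 0.88, rho 0.87, r 0.84 without the 2 libraries farthest from the median of miR-2c-3p). The next 4, PC-5p-15568, PC-3p-186037, PC-5p-66851 and the form bmo-miR-9a-5p_L+2R-2, had r of 0.60 to 0.65. They were low as well, at means of 49.7, 2.65, 6.13 and 11.8 TMM CPM. Without those 2 libraries r became 0.50, 0.76, -0.20 and 0.33, so that PC-5p-66851 and this miR-9a-5p form rest on them. For miR-13b-3p the nearest were ame-miR-1175-3p_R-2_1ss17AT and miR-2765-5p, both with r of 0.84 (0.80 and 0.76 without 2 libraries). PC-5p-25818, tur-miR-278-3p_L+2R+1_1ss12TC and PC-3p-15330 followed at 0.76 to 0.79, with means of 9.87, 8.16 and 40.4 TMM CPM. Without the 2 libraries their r became 0.54, 0.21 and 0.30, so that this miR-278-3p form and PC-3p-15330 rest on them. For miR-71-5p the nearest were PC-3p-2693 with r of 0.83 and miR-8-5p with 0.82 (0.77 and 0.80 without 2 libraries). Then came dpu-miR-193_R+2_1ss22AG, PC-3p-305 and PC-5p-102 at 0.75 to 0.79 (0.71, 0.71 and 0.51), with means of 5.03, 735 and 5418 TMM CPM. These are the highest correlations among all tested sequences outside the families, over 9 libraries that share depth and scaling, and are given as a description.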

How the data were processed

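Small RNA of 18 to 26 nt was sequenced in 9 libraries, 3 each at 1, 3 and 5 days after emergence. The authors trimmed and filtered reads in ACGT101-miR, dropped those of other RNA classes or repeats, aligned what remained by BLAST to precursors of miRBase 22.0 and to the planthopper genome, and folded hairpins with RNAfold. The sources used here name neither the version of ACGT101-miR nor the genome build. The deposited raw columns hold estimated counts per entry, and the normalized ones a deposited signal, equal to these counts times 1 factor a library (0.566 to 2.49). The deposited lengths and folding energies were read as given, and the deposited G and C percent of the precursor was not used. The table's column of expression classes was not used.

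Each distinct sequence was used once, since its entries held the same values. Counts were rounded and fitted with edgeR 4.0.16 (R 4.3.3; quasi-likelihood test, TMM factors, all 9 libraries, phase as the only term), which kept 341 of 759 sequences by filterByExpr, and p-values were adjusted over all of them (Benjamini-Hochberg, called below 0.05). The study tested normalized values per miRNA. SE was the log2 fold change over the root of F. Alternatives used DESeq2 1.42.0, limma 3.58.1 on log2 values with a pseudocount of 1 or 10, other scalings, filters and left-out libraries. Ratios used raw counts plus 0.5 and exact permutation tests (2-sided). The fit was also run on simulated data with planted changes far larger than those of the members, which does not speak to changes of the members' size. Total counts of 972506 to 3184052 per library set the precision. Genes were named by rule: all members, cluster candidates within 10000 bases, sequences with a member's seed and the 5 most like sequences per family. The members and lists were chosen with earlier results of these data known.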

Additional observations from a re-analysis of the deposited data

How the results depend on the processing

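No member was called in any comparison under any of the 21 alternatives, and the lowest adjusted p of a member in any of them was 0.469. Of 147 alternative log2 fold changes of members in 5 d vs. 1 d, 137 kept their direction and 10 turned, none of them past the threshold. For miR-2c-3p (-0.07) these were limma with a pseudocount of 1 or 10 (0.045 each), library totals (0.12) and the authors' factors (0.049). These scalings also moved the median of all tested sequences, from 0.05 to 0.23 with library totals and to 0.16 with the authors' factors, so that miR-2c-3p stayed below that median. Leaving out 1 library gave -0.30 to 0.25 for the shifted miR-2-3p (-0.029 without 1 d replicate 3, -0.30 without 5 d replicate 1), and -0.29 to 0.21 for miR-2-3p (-0.015 when 1 d replicate 2 was dropped, -0.040 for 1 d replicate 3 and -0.29 for 5 d replicate 1). It gave -0.020 (without 1 d replicate 1) to 0.37 for miR-71-3p.

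The difference 5 d minus 1 d of the miR-71 arm ratio was -0.054, and -0.31 to 0.12 when 1 library was left out (0.12 without 1 d replicate 1, 0.032 without 1 d replicate 2). For miR-2c-3p to miR-13b-3p it was -0.50, -0.71 to -0.22 without 1 library, and 0.30 with candidate forms added. For miR-71-5p to miR-2c-3p it was 0.25, and 0.12 to 0.38 without 1 library. With replicate numbers as a block (replicate block), the 3 differences were again -0.054, -0.50 and 0.25, with exact permutation p-values of 0.778, 0.5 and 0.5, and 0 members were called. Deviations from the phase mean had correlations of -0.39 to 0.42 between same-numbered libraries and of -0.51 to 0.50 between differently numbered ones. These values cannot decide whether the numbers pair the libraries, and the labels do not say.

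With 3 libraries a phase, the data did not exclude changes inside the intervals given for the tested members. A possible splitting of reads between entries limits comparisons between members, and the rarest member had too few reads to test.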
